A study of Mus musculus with 12 samples.

Results

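The genes described here are 4 of the MYST acetyltransferases, Kat6a, Kat6b, Kat7 and Kat8, and 6 genes whose products assemble with them. Those 6 are the scaffolds Brpf1, Brpf3 and Brd1, the chromatin readers Ing4 and Ing5, and the small subunit Meaf6. Kat5, another MYST enzyme, is not among the 10 and is read below with its own complex. The 10 genes were chosen by gene symbol, though with earlier results of these data known. They are among the 27179 Entrez gene IDs counted in 12 RNA-seq libraries of sorted murine B cells. All 10 were found and all 10 passed the filter on low counts. A library held polyA RNA pooled from 2 to 8 C57BL/6 mice, with 2 pools in each of 6 groups. Moz knockout (Moz fl/fl AID-cre T/+) and Moz control (AID-cre T/+) mice gave germinal centre (GC) B cells on day 7 after immunisation with NP-KLH in alum. Myb knockout (Myb fl/fl CD23-cre T/+) and Myb control (Myb fl/fl with no cre) mice gave plasmablasts (PB) on day 5 after a boost with NP-KLH in PBS. The same pair of Myb genotypes gave GC B cells on day 12 after immunisation. Moz is the older name of Kat6a, so 1 of the 10 genes is also the floxed gene of the Moz experiment. AID-cre is active in B cells that switch on the activation-induced deaminase, and CD23-cre in mature B cells. Cre is confounded with the knockout in the Myb groups and shared by both Moz groups.

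MYST enzymes add acetyl groups to lysines of histone tails. MOZ (Kat6a) and its close relative MORF (Kat6b) work in a complex held together by a BRPF scaffold, with an ING protein that reads methylated histone H3 and with MEAF6. The same BRPF scaffolds, or JADE scaffolds in their place, hold the enzyme HBO1 (Kat7), whereas MOF (Kat8) acts on histone H4 in complexes of its own. MOZ is best known for its part in blood stem cells, in leukaemia fusions and in the B cell response to antigen. GC B cells divide rapidly and mutate their antibody genes, and plasmablasts are their antibody-secreting relatives. A level is given here as CPM, the count relative to the scaled total of its library (TMM scaling), which corrects for transcripts that fill a library, and a log2 fold change comes from edgeR's quasi-likelihood test. A gene is called at a Benjamini-Hochberg adjusted p under 0.05 over the 13131 genes tested.

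The libraries held 8285934 to 24801297 counts. Immunoglobulin transcripts took 65.0 to 70.0% of PB counts and 1.59 to 9.16% of GC counts. The markers went with the labelled cell types. The summed level of 6 plasmablast markers was 104300 to 143200 CPM in PB libraries and 924 to 7128 CPM in GC libraries, and that of 6 GC markers was 59.8 to 74.2 CPM in PB libraries and 873 to 1518 CPM in GC libraries. Jchain made up most of the plasmablast sum, at 97470 to 136100 CPM in PB and 770 to 6530 CPM in GC libraries. T cell, NK and erythroid markers summed to at most 6.38, 2.03 and 2.07 CPM in any library, and myeloid markers to 6.09 to 62.3 CPM (19.5 to 62.3 CPM in PB libraries, 6.09 to 34.6 CPM in GC libraries). The NK marker Ncr1 was at 0 in all PB pools, and the T cell marker Cd3e had at most 1.33 CPM anywhere. In bulk RNA, fewer cells of a type and less RNA per cell cannot be told apart. The 2 pools of a group have different experiment dates in the labels, and p-values measure the spread between these pools.

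The 2 pools of a group differed in a way that followed transcript length. In the Myb groups, genes with over 6 kb of exon had a median pool 1 minus pool 2 difference of 0.28 to 0.43 in log2 CPM, and genes under 1 kb a median of -0.42 to -0.31. Moz knockout pools differed the other way, with -0.20 for the long genes and 0.23 for the short ones, and Moz control pools gave 0.09 and -0.17. Pools of the same number in a knockout and its control share their experiment dates, so a difference between pools is also one between dates. The 10 genes span exon lengths of 876 bases (Meaf6) to 9126 bases (Kat6a). Kat6a was higher in pool 1 by 0.53 to 1.10 in log2 CPM in the 4 Myb groups and by 0.16 in Moz controls, and lower by 0.49 in Moz knockouts. In each of the 6 groups this was the sign of the median of its length class. Not every member kept to its class: Kat6b, also over 6 kb, was higher in pool 1 by 0.11 in Moz knockouts, and Kat8, in the class of 1 to 2 kb, was higher in pool 1 by 0.25 in Myb knockout and 0.32 in Myb control GC B cells, where its class had medians of -0.20 and -0.16. The part of this length pattern in the comparisons below was not tested. Myeloid markers also went with pool number in the Myb groups. Csf1r had 31.9 CPM in pool 1 and 9.87 CPM in pool 2 of Myb knockout PB, and 38.35 and 9.29 CPM in Myb control PB. Csf1r, Lyz2, Adgre1 and Cd14 were higher in pool 1 of every Myb group, and Itgam in all but Myb control PB. The part of this in the pool differences of the 10 genes was not tested.

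**Figure D1:**
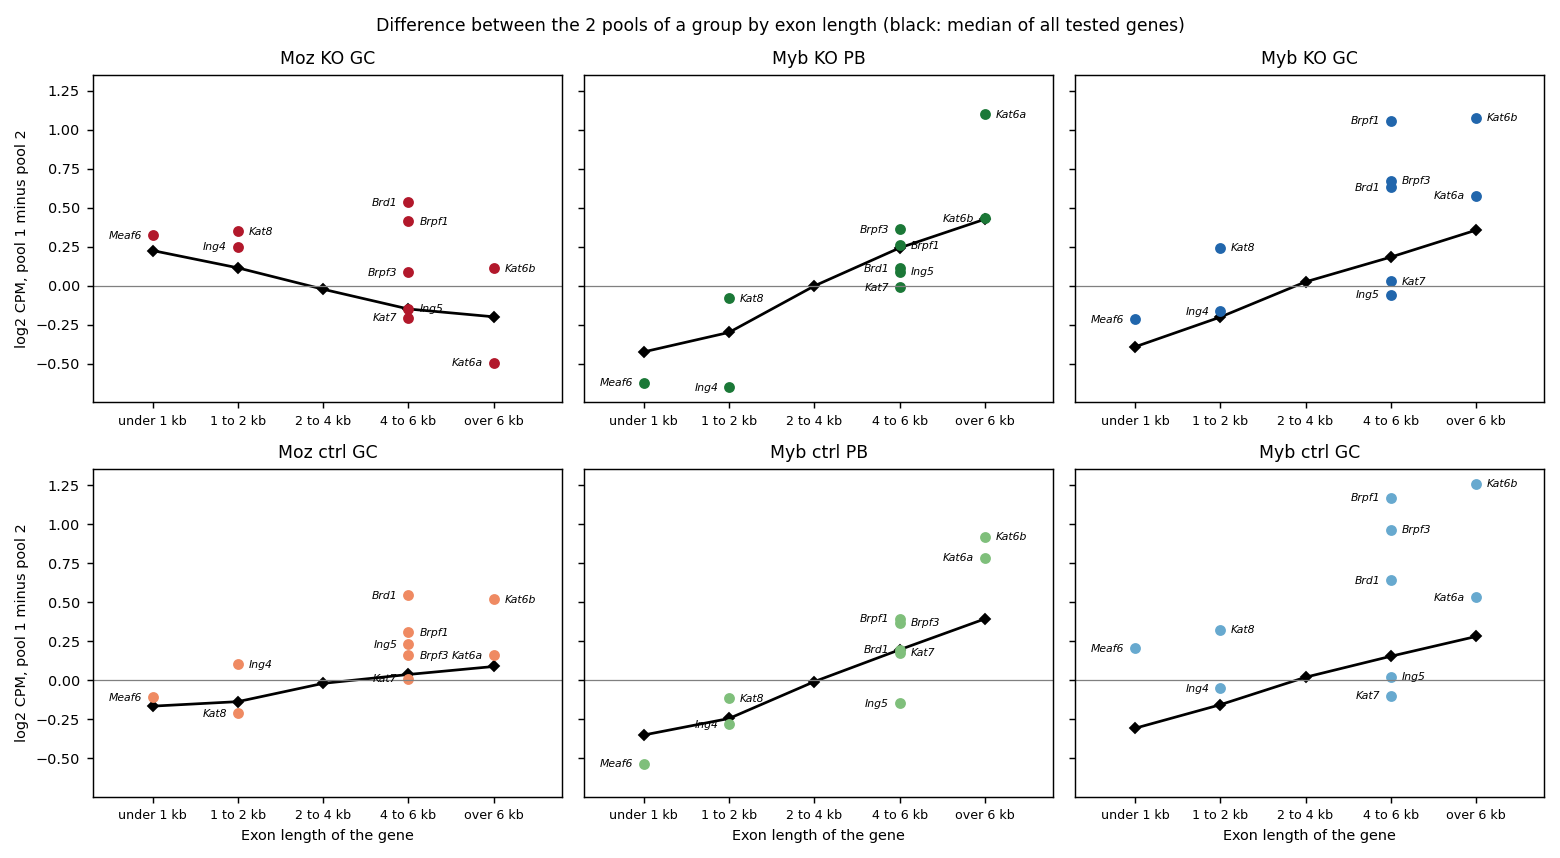
Difference between pool 1 and pool 2 of each group (log2 CPM, y axis) by exon length class (x axis), for the 10 genes (coloured points) and for all tested genes (black, median of the class). In the 4 Myb groups the black line climbs with length, to 0.28 to 0.43 over 6 kb, and Kat6a and Kat6b lie above 0, while in Moz knockouts it falls to -0.20, with Kat6a at -0.49 and Kat6b at 0.11.

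Levels can be compared between genes only per length, so each CPM was divided by the exon length in kb. On this per-kb scale Meaf6 was the highest of the 10 in all 4 GC groups, at 24.4 in Moz knockout, 29.0 in Moz control, 22.9 in Myb knockout and 26.5 in Myb control cells, above the next gene with no overlap of pools. Ing4 came second in GC B cells and first in PB, at 19.7 in Myb knockout and 18.8 in Myb control PB. Kat6b was last in every group, at 3.07 in Myb knockout PB, 3.22 in Myb control PB and 0.63 to 0.83 in the GC groups. Kat7, Kat8, Brpf1, Brd1 and Kat6a filled the middle, between 6.81 and 12.6, and most neighbours among them overlapped in their pools. In PB, Meaf6 stood among them, at 10.5 in Myb knockouts and 10.7 in Myb controls. Ing5 stood at 4.70 to 5.76 and Brpf3 at 3.05 to 5.96. The order within a group was the same without TMM factors, since a factor scales all genes of a library alike.

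**Figure D2:**
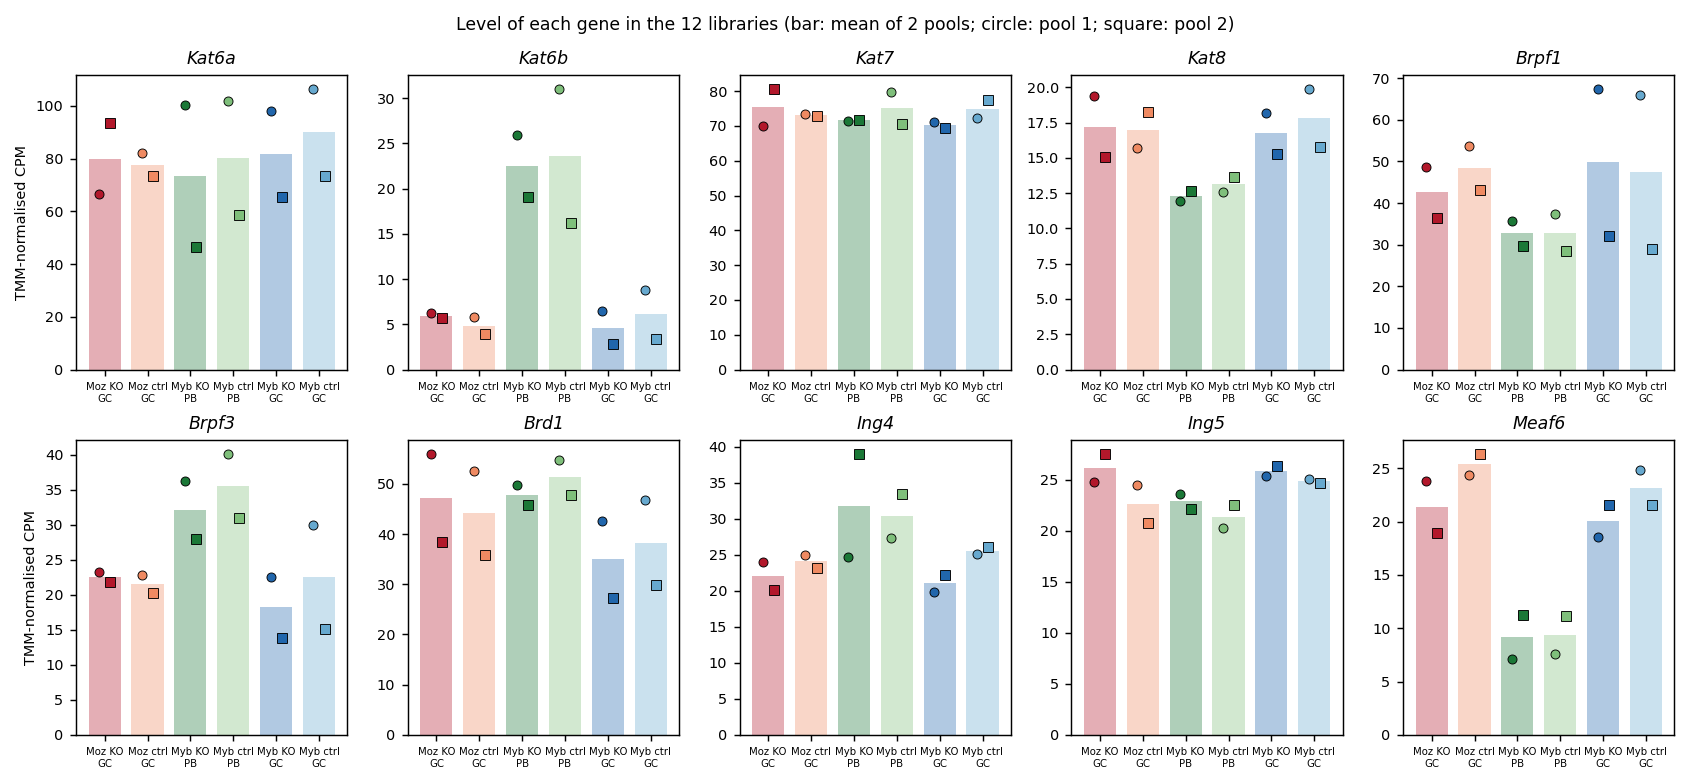
Level of each of the 10 genes (y axis, TMM-normalised CPM) in the 6 groups (x axis); bars are the mean of 2 pools, circles pool 1 and squares pool 2. Kat6b stands out upwards in the PB groups (16.2 to 31.1 CPM, against 2.81 to 8.80 CPM in GC groups) and Meaf6 downwards (7.14 to 11.2 CPM, against 18.6 to 26.4 CPM).

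The Moz comparison asks what the floxed Moz alleles with AID-cre change in day 7 GC B cells. None of the 10 genes was called. Kat6a itself (ID 244349, chromosome 8, 22859442 to 22943259 in mm10) had 66.4 and 93.7 CPM in Moz knockout pools, against 82.0 and 73.4 CPM in Moz control pools. The control values lie inside the range of the knockout values. The log2 fold change was 0.04 (SE 0.38, adjusted p = 1), with a 95% interval of -0.78 to 0.87, which is a fold of 0.582 to 1.82. This fit leaves the pools unpaired. With a replicate block in edgeR, which pairs same-numbered knockout and control pools by date, the log2 fold change was 0.03 (SE 0.15, adjusted p = 0.967). A count over the whole gene does not test a deletion of some of its exons, and the labels do not say which exons are floxed. Kat6a is thus no check of the Moz labels.

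Its relative Kat6b had 6.21 and 5.71 CPM in Moz knockouts and 5.80 and 3.90 CPM in Moz controls, with overlapping pools. On the log2 scale the difference was 0.30 (SE 0.47, adjusted p = 1), with an interval of -0.73 to 1.32. Ing5, a reader of methylated histone H3, had 24.8 and 27.5 CPM in Moz knockouts, against 24.5 and 20.8 CPM in Moz controls. Meaf6 had 23.8 and 18.9 CPM in knockouts, against 24.4 and 26.4 CPM in controls. These were the only 2 of the 10 whose pools did not overlap, Ing5 being higher and Meaf6 lower in Moz knockouts, and 26.7% of all tested genes had pools that did not overlap. Their log2 fold changes were 0.21 (SE 0.17) for Ing5 and -0.25 (SE 0.24) for Meaf6, and neither was called. With edgeR 0 of 10 were called, 0 had an unadjusted p under 0.05, and the fit with the replicate block called 0 as well. DESeq2 gave an adjusted p only to Kat6a and Kat7 (0.999 each) and called neither. It gave none to the rest of the 10 genes, so it could not call them here. Over all genes edgeR called 0 of 13131 (0%), with 315 at an unadjusted p under 0.05, while DESeq2 called 11 genes higher and 0 lower. The fit with the replicate block called 35 genes higher and 4 lower. The median log2 fold change was 0.04 over the 10 genes and -0.01 over all genes.

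Genes reported from other tissues as MOZ targets were followed through a list of 13. They are called reported MOZ targets here, whatever the direction of the reported effect, and the name is not a result of these data. The blood and patterning regulators Hoxa3, Hoxa5, Hoxa7, Hoxa9, Hoxa10, Meis1 and Tbx1 had at most 0.20 CPM in any Moz pool and were not tested. The other 6 were counted well enough to test, and 0 were called by edgeR with or without the replicate block. The smallest unadjusted p was that of Bmi1, a Polycomb protein, which had 23.6 and 30.0 CPM in Moz knockouts, against 19.4 and 17.0 CPM in Moz controls. Its pools did not overlap, and its log2 fold change was 0.56 (SE 0.19, unadjusted p = 0.0131, adjusted p = 1); with the replicate block the adjusted p was 0.154. Ezh2, the methyltransferase of the other Polycomb complex, had 123.2 and 126.8 CPM in knockouts, against 143.6 and 163.9 CPM in controls (log2 -0.30, SE 0.19). Bmi1 and Ezh2 were picked here after their values were seen. Plasmablast markers summed to 5965 to 7128 CPM in Moz knockout and 4589 to 4835 CPM in Moz control GC B cells. Jchain made up most of this, at 5535 and 6530 CPM in Moz knockouts, against 4206 and 4386 CPM in Moz controls. Of the others, Irf4 was also higher without overlap of pools, while Prdm1, Xbp1, Sdc1 and Tnfrsf17 overlapped. The part of these differences in the values above was not tested.

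**Figure D3:**
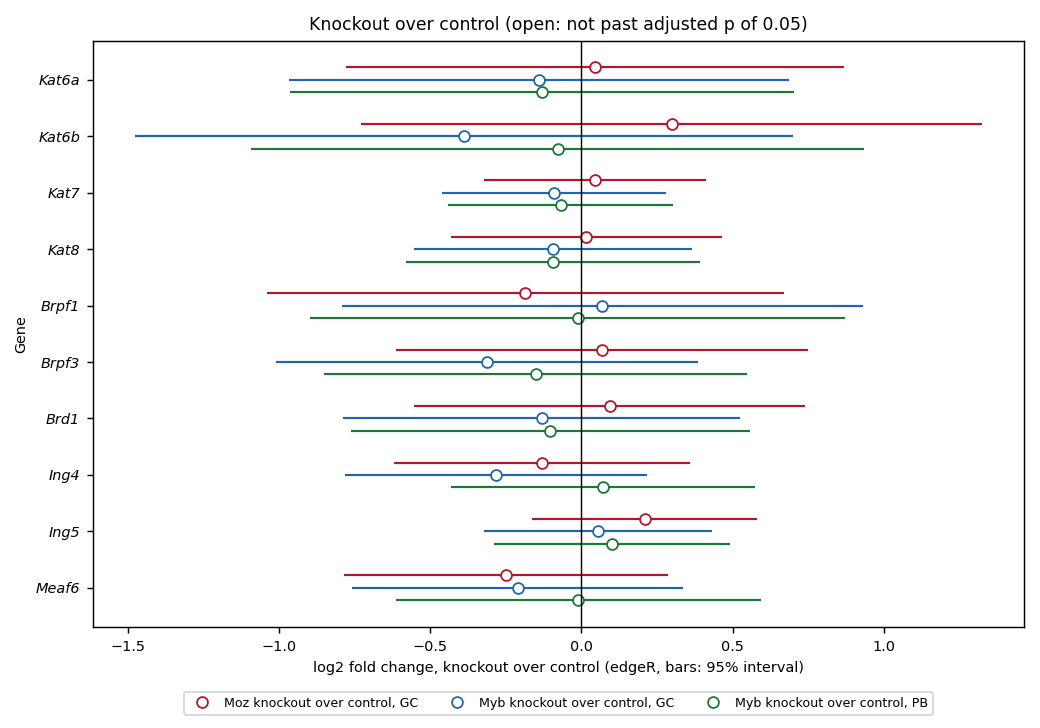
Log2 fold change of each gene between knockout and control (x axis, points; bars are 95% intervals) for Moz GC, Myb GC and Myb PB (colours). Every interval crosses 0, and no point passes an adjusted p of 0.05. The intervals come from the fit that leaves the pools unpaired.

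The comparison of PB with GC B cells asks how the 10 genes differ between the antibody-secreting and the GC state. Kat6b rose and Meaf6 fell in PB of both Myb genotypes, and Ing4 rose in the Myb knockouts. Among Myb knockout libraries 3 of 10 members were called, beside 51.6% of all tested genes. Among Myb control libraries 2 of 10 were called, beside 53.2% of all. Pools of the stages that do not overlap are given below as a description only. The share of all tested genes with such pools was not counted between the stages. PB and GC B cells were sorted on different dates and after different immunisations, which cannot be told apart from the cell state.

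Kat6b (ID 54169, chromosome 14, 21499216 to 21672478) had 26.0 and 19.1 CPM in Myb knockout PB, against 6.49 and 2.81 CPM in Myb knockout GC B cells. In Myb controls it had 31.1 and 16.2 CPM in PB, against 8.80 and 3.39 CPM in GC B cells. The lowest PB pool was above the highest GC pool in both genotypes. The log2 fold change was 2.26 (SE 0.49, adjusted p = 0.00248) in Myb knockouts and 1.95 (SE 0.49, adjusted p = 0.00532) in Myb controls. The control call was lost without Myb control PB pool 1 (log2 1.39, adjusted p = 0.0658). With libraries scaled by total counts alone, the log2 fold change was 0.19 in knockouts and 0.08 in controls and was not called, while the median of all genes stood at -2.21 and -2.04, against -0.17 in each genotype under TMM.

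Meaf6 (ID 70088, chromosome 4, 125085113 to 125113238), the small subunit common to the MOZ, MORF and HBO1 complexes, had 7.14 and 11.2 CPM in Myb knockout PB, against 18.6 and 21.6 CPM in Myb knockout GC B cells. In Myb controls it had 7.54 and 11.2 CPM in PB, against 24.9 and 21.5 CPM in GC B cells. Every PB pool was below every GC pool. The log2 fold change was -1.12 (SE 0.26, adjusted p = 0.00405) in knockouts and -1.32 (SE 0.26, adjusted p = 0.00131) in controls. The knockout call was lost without Myb knockout PB pool 1 (log2 -0.81, adjusted p = 0.0525). Meaf6 is also the shortest of the 10 transcripts, and genes under 1 kb had a median log2 fold change of -0.29 in knockouts and -0.34 in controls, against -0.04 and 0.05 for genes over 6 kb. The Meaf6 values lie well below those medians; the part of length in them was not tested.

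Windows of 250 bases before a RefSeq start of these 2 genes are printed because they are the genes called in both genotypes, in opposite directions. They come from the RefSeq table of GRCm38.p6 (the assembly of mm10), 5′ to 3′ on the strand of the gene, which is the plus strand for both, from chr14:21499520-21499769 for Kat6b and chr4:125084884-125085133 for Meaf6. Capitals mark matches, on either strand, to 3 short core motifs: AACNG of c-MYB, GAAAG of the plasma cell repressor Blimp-1 and ACGTG of the secretory regulator XBP1.
Kat6b: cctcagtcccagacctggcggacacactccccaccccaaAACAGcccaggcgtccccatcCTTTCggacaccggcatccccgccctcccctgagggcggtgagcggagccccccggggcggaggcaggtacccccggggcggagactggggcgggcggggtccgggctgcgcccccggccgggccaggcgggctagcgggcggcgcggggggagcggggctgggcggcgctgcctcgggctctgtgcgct
Meaf6: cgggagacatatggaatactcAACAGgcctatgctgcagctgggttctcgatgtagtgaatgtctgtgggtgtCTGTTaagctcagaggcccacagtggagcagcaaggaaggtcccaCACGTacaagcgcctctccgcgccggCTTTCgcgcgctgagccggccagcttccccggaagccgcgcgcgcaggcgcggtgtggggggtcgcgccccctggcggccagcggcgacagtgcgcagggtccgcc
The Kat6b window held 1 match to AACNG, 1 to GAAAG and 0 to ACGTG, and the Meaf6 window held 2, 1 and 1. Such short motifs are common: of 32851 windows of this length, 74.2% held AACNG, 51.5% GAAAG and 16.6% ACGTG. Matches to different motifs can overlap. Both windows are rich in CpG, with 27 CpG pairs and 78.8% G or C for Kat6b and 25 and 66.8% for Meaf6, beside a median of 6 and 52.4% over all windows. All of the Kat6b window and the last 21 bases of the Meaf6 window lie inside the annotated spans of the genes, which have earlier starts. The table holds a second Kat6b window, 15 bases further on, which is not printed. The first bases of the Meaf6 window overlap an exon of the antisense RNA Gm12932. Of the 10 genes, 9 had a window, of which 7 held AACNG, 5 GAAAG and 2 ACGTG. A match is a run of letters and shows no binding.

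Among the other acetyltransferases, Kat6a had 100.3 and 46.6 CPM in Myb knockout PB, against 98.0 and 65.5 CPM in Myb knockout GC B cells. In Myb controls it had 101.7 and 58.7 CPM in PB, against 106.6 and 73.6 CPM in GC B cells. The pools overlapped in both genotypes and differed more within a group than between the groups. PB over GC was -0.16 on the log2 scale (SE 0.38) in knockouts and -0.17 (SE 0.38) in controls. Kat7 had 71.5 and 71.8 CPM in knockout PB, against 71.0 and 69.5 CPM in knockout GC B cells, and 79.7 and 70.5 CPM in control PB, against 72.2 and 77.5 CPM in control GC B cells. Its log2 fold changes were the smallest in size of the 10, 0.03 (95% interval -0.34 to 0.40) and 0.01 (-0.36 to 0.38). Kat8 had 11.9 and 12.6 CPM in knockout PB, against 18.2 and 15.3 CPM in knockout GC B cells, and 12.6 and 13.7 CPM in control PB, against 19.9 and 15.8 CPM in control GC B cells. Its PB pools were all lower, with a log2 fold change of -0.45 in each genotype, but neither was called (adjusted p = 0.105 in knockouts and 0.102 in controls).

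The share of Kat6b in the summed per-kb level of Kat6a and Kat6b puts the pair side by side within a library, where scaling cancels. It was 24.4 and 33.7% in Myb knockout PB and 27.6 and 25.5% in Myb control PB. In GC B cells it was 7.62 and 5.06% in Myb knockouts, 9.31 and 5.41% in Myb controls, 10.4 and 7.04% in Moz knockouts, and 8.09 and 6.20% in Moz controls. All 4 PB libraries were above all 8 GC libraries. The shares are given as a description and were not tested.

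Of the BRPF scaffolds, Brpf3 had 36.2 and 28.0 CPM in Myb knockout PB, against 22.5 and 13.9 CPM in Myb knockout GC B cells. In Myb controls it had 40.1 and 31.0 CPM in PB, against 30.0 and 15.2 CPM in GC B cells. The PB pools were all higher within each genotype, with log2 fold changes of 0.82 (SE 0.32, adjusted p = 0.0520) in knockouts and 0.65 (SE 0.32, adjusted p = 0.105) in controls. Brd1 had 49.7 and 45.9 CPM in knockout PB, against 42.6 and 27.3 CPM in knockout GC B cells, and 54.8 and 47.8 CPM in control PB, against 46.8 and 29.8 CPM in control GC B cells. Its log2 fold changes were 0.45 and 0.42 (SE 0.30 in each genotype). Brpf1, the scaffold most closely tied to MOZ, had 35.7 and 29.7 CPM in knockout PB, against 67.5 and 32.1 CPM in knockout GC B cells, and 37.5 and 28.4 CPM in control PB, against 65.9 and 29.0 CPM in control GC B cells. GC pool 1 stood far above GC pool 2 in both genotypes, and the log2 fold changes were -0.61 and -0.53 (SE 0.40 in each). The main edgeR fit (TMM scaling, low-count filter, no replicate block) called no scaffold in either genotype, but Brpf3 lay near the limit. In Myb knockouts Brpf3 was called by DESeq2 (adjusted p = 0.0208), by edgeR with DESeq2 size factors (0.0326), without the low-count filter (0.0111), with immunoglobulin genes left out (0.0330) and without knockout GC pool 1 (0.0229). In Myb controls it was called without control GC pool 1 (adjusted p = 0.0110). Brpf1 was called without the low-count filter, at adjusted p of 0.0273 in knockouts and 0.0480 in controls. Under total counts alone Brpf3 and Brd1 turn negative (-1.25 and -1.62 in knockouts, -1.24 and -1.47 in controls), above the all-gene medians of -2.21 and -2.04.

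Within the scaffolds, Brpf1 made up 33.0 to 33.8% of the summed per-kb level in Myb knockout PB and 30.6 to 32.7% in Myb control PB, against 48.6 to 55.8% in Myb knockout GC B cells and 43.9 to 51.2% in Myb control GC B cells. Brpf3 took 23.1 to 25.5% in Myb knockout PB and 24.8 to 26.0% in Myb control PB, against 13.8 to 15.7% in Myb knockout GC B cells and 17.0 to 17.4% in Myb control GC B cells. The Moz groups lay with the other GC libraries, with 42.4 to 42.6% Brpf1 in Moz knockouts and 46.3 to 48.4% in Moz controls. The Brpf1 and Brpf3 shares separate PB from GC B cells with no overlap, but those of Brd1 overlap. Per library, Brd1 made up 40.68 to 44.55% at the PB stage, while the GC libraries ran from 30.41 to 42.25%. The highest of these GC values was that of Moz knockout pool 1. The scaffold shares serve as a description only, and their difference between the stages was not tested.

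**Figure D4:**
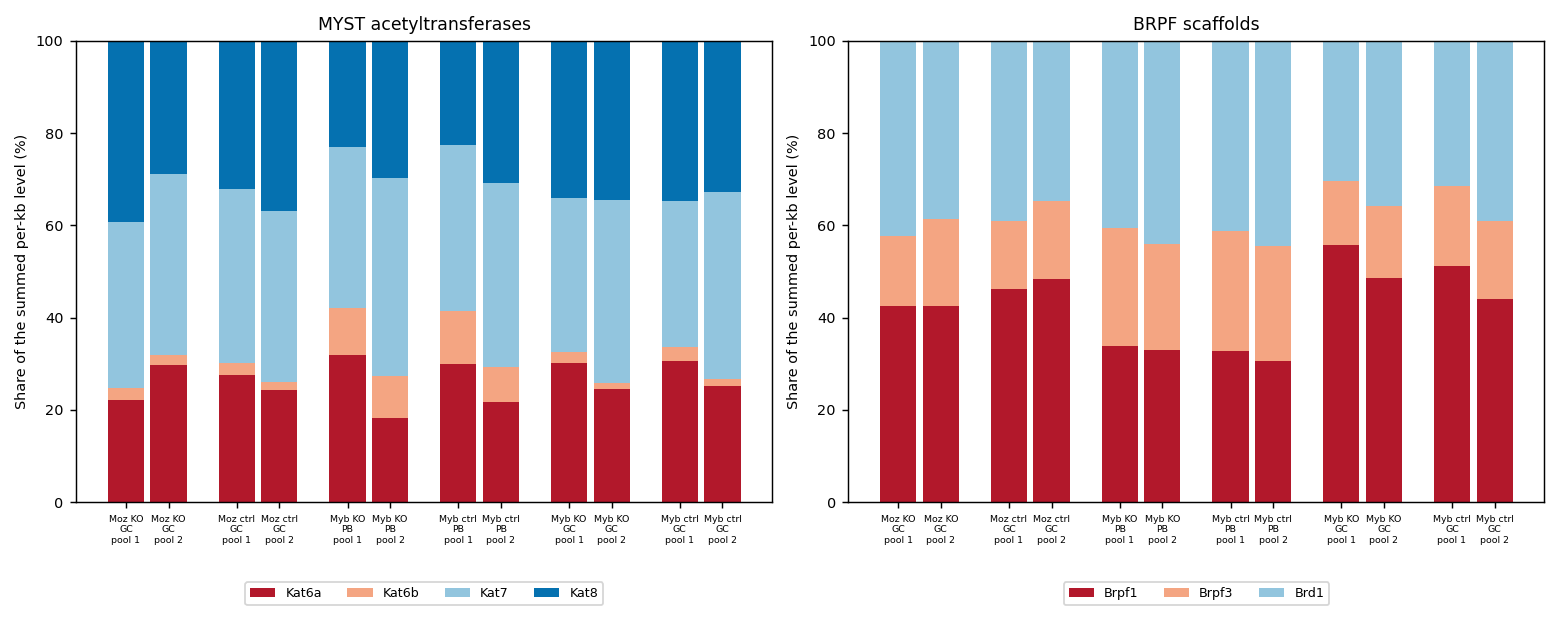
Share of each gene (y axis, percent of the summed per-kb level) in each of the 12 libraries (x axis). Left, shares among the 4 MYST acetyltransferases of this report, without Kat5, and right, among the 3 BRPF scaffolds. In the 4 PB libraries Kat6b takes 7.46 to 11.4% of the enzymes, against 1.30 to 3.14% in the 8 GC libraries, and Brpf1 takes 30.6 to 33.8% of the scaffolds, against 42.4 to 55.8%.

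Ing4 (chromosome 6, 125039848 to 125049265) had 24.7 and 39.0 CPM in Myb knockout PB, against 19.8 and 22.2 CPM in Myb knockout GC B cells. In Myb controls it had 27.4 and 33.4 CPM in PB, against 25.1 and 26.0 CPM in GC B cells. PB pools were higher without overlap in both, and Ing4 rose in Myb knockouts (log2 0.60, SE 0.23, adjusted p = 0.0463) but was not called in Myb controls (log2 0.25, SE 0.23, adjusted p = 0.383). With total counts alone it is -1.46 and -1.64. The knockout call was lost without the low-count filter (log2 0.55, adjusted p = 0.0818). It held in 1 of the 4 fits that left out a library, with the adjusted p reaching 0.504 without Myb knockout PB pool 2. Ing4 shares 34.9% of its annotated exon bases with Gm44597 on the same strand, so some of its reads may be counted to another gene. Its partner Ing5 had 23.6 and 22.1 CPM in knockout PB, against 25.3 and 26.4 CPM in knockout GC B cells, and 20.2 and 22.5 CPM in control PB, against 25.1 and 24.7 CPM in control GC B cells. Its PB pools were lower without overlap, at log2 fold changes of -0.18 (SE 0.17) and -0.22 (SE 0.18), neither of which was called.

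**Figure D5:**
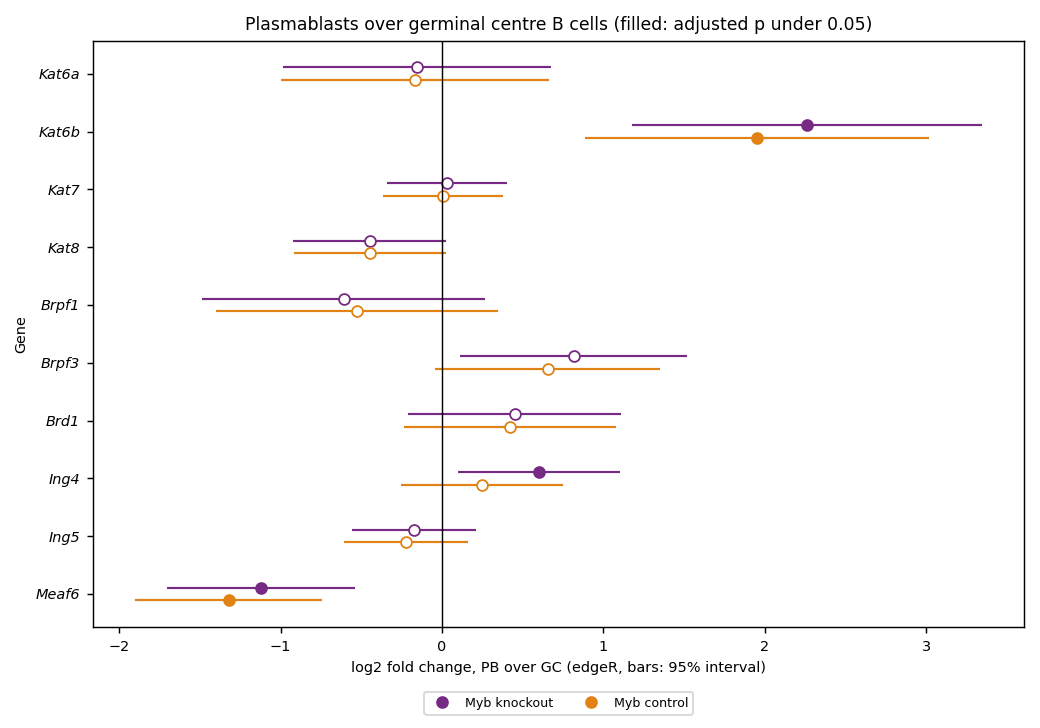
Log2 fold change of each gene in PB over GC B cells (x axis, points; bars are 95% intervals; filled points have an adjusted p under 0.05) in Myb knockouts and Myb controls. Kat6b (2.26 and 1.95) and Meaf6 (-1.12 and -1.32) are filled in both; with total counts alone, Brpf3, Brd1 and Ing4 turn negative and Kat6b is at 0.19 and 0.08, not called.

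A fit with a replicate block, in which pools that share a number and an experiment share a term, called more genes between the stages. PB and GC pools never share a date, so the block takes the spread between dates out of the error while the stage difference lies between dates, and its p-values for that difference are too small. With it, edgeR called 7 of 10 in Myb knockouts (66.7% of all genes) and 6 of 10 in Myb controls (67.8%). In both genotypes Kat6b, Brpf3 and Brd1 were then higher and Meaf6, Brpf1 and Kat8 lower, with adjusted p of 0.0444 for Kat8 in knockouts and 0.0422 in controls, and Ing4 was higher in knockouts. The mean of the genotypes, 4 PB against 4 GC libraries, was added after the data were seen. Knockout and control pools of the same number share dates, so the 4 libraries of a stage come from 2 sets of dates, while the fit counts them as independent. It called 5 of 10, beside 65.8% of all genes (76.8% with the block). Kat6b rose by a log2 fold change of 2.11 (adjusted p = 0.000216), Brpf3 by 0.73 (adjusted p = 0.0134) and Ing4 by 0.42 (adjusted p = 0.0370), while Meaf6 fell by 1.22 (adjusted p = 0.000123) and Kat8 fell by 0.45 (adjusted p = 0.0224). The block called 7 of 10 there. Of the 8 fits that left out a library, 2 kept the call of Ing4 (adjusted p up to 0.235), 4 that of Kat8 and 6 that of Brpf3. Kat8 was not called by DESeq2 (adjusted p = 0.0677), with DESeq2 size factors (0.0536) or with immunoglobulin genes left out (0.0711), settings in which Brd1 was called instead, and Ing4 was not called without the low-count filter (0.0910). The median log2 fold change of the 10 genes was -0.06 in knockouts and -0.08 in controls, against -0.17 for all genes in each.

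The enzymes and complexes around these 10 genes were read from lists of the same kind. In the Kat5 (TIP60) complex, which acetylates histones H2A and H4, 1 of 17 tested genes rose and 8 fell in Myb knockout PB, and 1 rose and 10 fell in Myb control PB, beside 51.6 and 53.2% of all genes called. The 9 called in knockouts become 14 with the replicate block, and the 11 in controls become 6 without Myb control PB pool 1. The gene that rose was Morf4l2, an MRG-domain subunit (log2 1.43 in knockouts and 1.69 in controls, turning to -0.62 and -0.18 with total counts alone). Those that fell included the ATPase Ruvbl2 (-1.58 and -1.43) and the acetyl-lysine reader Yeats4 (-1.61 and -1.51). The list's median was -0.52 and -0.63, against -0.17 for all genes.

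Of the 3 JADE scaffolds, which take the place of BRPF proteins around HBO1, Jade1 rose, at 87.1 CPM in Myb knockout PB against 22.7 CPM in GC B cells, and 81.5 against 24.1 CPM in Myb controls. Its log2 fold changes were 1.94 and 1.76, and they become -0.11 in each genotype with total counts alone. The JADE list had 1 call in each genotype, beside 51.6% of all genes in knockouts and 53.2% in controls. Of 12 partners of Kat8, 0 rose and 2 fell in each genotype, beside the same 51.6 and 53.2% of all genes called. The 2 were Wdr5 (log2 -0.55 and -0.66) and Hcfc1 (-0.91 and -0.87). Some fits that left out a library lost the call of Hcfc1 in either genotype and that of Wdr5 in knockouts. Among 9 acetyltransferases outside the MYST family, Kat2b (PCAF) rose (1.47 and 1.13) and Hat1, which acetylates newly made histone H4, fell (-2.47 and -2.73). Kat2b turns to -0.59 and -0.76 with total counts alone. In all, 1 of the 9 rose and 3 fell in knockouts, and 1 rose and 1 fell in controls, beside those same shares of all genes. The 4 called in knockouts become 2 without knockout GC pool 1 or PB pool 2, and the 2 in controls become 4 without control PB pool 1 and 6 with the block. Of 15 deacetylases, 3 rose and 6 fell in each genotype, beside the same 51.6 and 53.2% of all genes called. Hdac1 fell (-1.73 and -2.31), and Hdac5 (2.21 and 1.76) and Hdac11 (2.54 and 2.61) rose, of which Hdac5 becomes 0.14 and -0.14 with total counts alone. The 9 deacetylases called in knockouts become 5 without knockout PB pool 1. The main edgeR fit (TMM scaling, low-count filter, no block) called 0 of the 3 MLL and menin partners in either genotype. In each, 1 was at an unadjusted p under 0.05. The histone methyltransferase Kmt2a (MLL1) was called lower with the replicate block in both genotypes, 1 partner was called without the low-count filter in each, and DESeq2 called 1 in knockouts and 0 in controls.

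All 6 tested genes of the list of reported MOZ targets were called between the stages, 2 higher and 4 lower in PB of each genotype. Of all genes, 51.6% were called in knockouts and 53.2% in controls. With total counts alone 4 of the 6 were called in each genotype, beside 11278 of 13131 genes in knockouts and 10985 in controls. The replication licensing factor Cdc6 fell (-3.06 in knockouts and -3.80 in controls), as did Ezh2 (-3.15 and -3.23) and the mitotic kinase Melk (-3.29 and -3.98). Bmi1 rose (1.85 and 2.24, which become -0.21 and 0.35 with total counts alone). Kat6a, in the same libraries, was not called, and any link between Kat6a and these changes was not tested.

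Myb knockout and Myb control were then compared within each cell type. In GC B cells 0 of 10 genes were called by edgeR, 0 had an unadjusted p under 0.05 and DESeq2 called 0, beside 0.259% of all genes called. Values of log2 fold change were -0.14 for Kat6a (95% interval -0.97 to 0.69), -0.39 for Kat6b (-1.47 to 0.70), -0.21 for Meaf6 (-0.76 to 0.34), 0.07 for Brpf1 (-0.79 to 0.93) and -0.28 for Ing4 (-0.78 to 0.22). Kat7 and Ing4 were lower, and Ing5 higher, in both knockout GC pools than in both control pools; 25.5% of all genes had pools that did not overlap. In PB 0 of 10 were called (0 at an unadjusted p under 0.05, 0 by DESeq2), beside 0.0381% of all genes. There the log2 fold change was -0.13 for Kat6a (-0.96 to 0.70), -0.08 for Kat6b (-1.09 to 0.93), -0.01 for Meaf6 (-0.61 to 0.59), -0.15 for Brpf3 (-0.85 to 0.55) and 0.10 for Ing5 (-0.29 to 0.49). The pools of all 10 genes overlapped in PB, and 25.2% of all genes had pools that did not. The replicate block called 0 of 10 in either cell type. The intervals above come from the fit without the block, which leaves the pools unpaired. For Kat6a that fit had an SE of 0.38 in each cell type, and the block 0.15 in GC B cells and 0.16 in PB.

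The Myb effect in PB minus that in GC B cells was tested directly. It was called for 0 of 10 genes (0 at an unadjusted p under 0.05, 0 by DESeq2 and 0 with the block) and for 0.00762% of all genes. The largest size among the 10 was 0.35 for Ing4 (SE 0.32), followed by 0.31 for Kat6b (SE 0.68). It was 0.20 for Meaf6 and 0.01 for Kat6a. In the lists around the 10 genes, edgeR called 0 genes in the Moz GC, Myb GC and Myb PB comparisons, with or without the block. At an unadjusted p under 0.05, 1 of the 6 tested reported MOZ targets stood in Moz GC (Bmi1, higher), beside 2.40% of all genes. In Myb PB there were 3 of the 6, beside 3.78% of all genes. Cdc6 (log2 0.92) and Melk (0.97) were higher and E2f2 (-0.47) lower. These genes are named here after their values were seen.

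The controls of the Myb and Moz experiments are both GC B cells, on day 12 and day 7. Day, cre, floxed allele and experiment differ together and cannot be told apart. None of the 10 genes was called (0 at an unadjusted p under 0.05, 0 by DESeq2 and 0 with the block), beside 1.38% of all genes. The log2 fold change of day 12 over day 7 was 0.21 for Kat6a (95% interval -0.61 to 1.04), 0.34 for Kat6b (-0.71 to 1.40), -0.21 for Brd1 (-0.86 to 0.45), 0.14 for Ing5 (-0.24 to 0.51) and -0.13 for Meaf6 (-0.67 to 0.41). Plasmablast markers summed to 924 to 1474 CPM in the day 12 controls and 4589 to 4835 CPM in the day 7 controls. Jchain made up most of these sums, at 770 and 1266 CPM on day 12 and 4206 and 4386 CPM on day 7.

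The genes whose profile over the 12 libraries was most like that of Kat6a were Zfp407, Tubgcp4, Med12, Zbtb40 and Trim33. Likeness was the root mean square difference between log2 CPM values centred on each gene's mean, which was 0.119 for Zfp407 and Tubgcp4, 0.136 for Med12, 0.138 for Zbtb40 and 0.140 for Trim33. The median over 11776 ranked genes was 0.650, and a gene with no change at all would score 0.355. Of these 5 genes, 4 have over 6 kb of exon, as Kat6a does, beside 1312 of all 13131 tested genes. The libraries share the length pattern described above, and its part in this likeness was not tested. Among the 10 genes, the closest was Kat7, at rank 831 with 0.333, near the 0.355 of a gene with no change. Kat6b was at rank 9527 with 1.12.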

How the data were processed

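Per the labels' protocols, polyA RNA was sequenced from 12 libraries, 2 pools of mice in each of 6 groups. The values are raw counts per Entrez gene ID deposited by the authors, and the submitters' processing notes name featureCounts and mm10. Neither the aligner nor strandedness nor tool versions are given in the sources used here. The exon length is another column the authors deposited. Library files and series table differed in 0 values, and 0 columns were unmapped. Symbols and coordinates came from RefSeq (GRCm38.p6) for 25275 IDs; 1904 IDs had none. The 10 genes and all lists were chosen with earlier results of these data known.

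edgeR 4.0.16 (R 4.3.3) fitted all 12 libraries with 6 group means (6 residual degrees of freedom) after filterByExpr (minimum count 10, minimum total 15; 13131 genes kept) and TMM scaling (factors 0.392 to 0.450 in PB, 1.45 to 1.73 in GC B cells). Each contrast had a robust two-sided quasi-likelihood F test with Benjamini-Hochberg adjustment over all tested genes. The biological coefficient of variation was 0.221. Alternatives were DESeq2 size factors, total counts alone, no low-count filter, DESeq2 1.42.0, immunoglobulin genes left out, each library left out, and a replicate block. Where a fit leaves 1 pool in a group, that pool is assumed to vary like the others. The scripts were tested on simulated data.

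Same-numbered knockout and control pools share experiment dates per the labels, which pairs them by number; their departures from the group mean correlated at 0.361 (Moz GC), 0.600 (Myb GC) and 0.453 (Myb PB). The block took the replicate number within each of the 3 experiments. For knockout against control the block pairs the pools by date, with 3 residual degrees of freedom. The SEs and intervals given come from the fit without it, unless stated. Named genes are all 10, up to 4 called genes per list with the smallest p, and the 5 genes most like Kat6a. The reported MOZ targets named in the Moz comparison fall outside the rule. Overlaps with other genes were read from GENCODE M21.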

Additional observations from a re-analysis of the deposited data

How the results depend on the processing

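No setting called any of the 10 genes in the Moz, Myb GC, Myb PB, day 12 against day 7 or difference-of-effects comparisons, whatever was left out or rescaled. In the Moz comparison, however, DESeq2 gave an adjusted p only to Kat6a and Kat7 and could call no other member. Between PB and GC B cells Meaf6 was called in Myb controls under all alternatives, and Kat6b in Myb knockouts under all but total counts alone. Alternative log2 values were counted for all 10 genes between PB and GC B cells and for the 4 or 5 genes given with values in each other comparison: 463 kept direction and side of the limit, 37 passed it anew, 25 lost it and 61 turned. The replicate block moved the number called to 7 in Myb knockouts, 6 in Myb controls and 7 in the mean of the genotypes. Of all 13131 genes it called 8763, 8901 and 10088 there. Total counts alone moved the number to 9 in each, beside 11278, 10985 and 11844 of all genes. In the other comparisons the count with the block stayed 0. Leaving out a library gave 2 to 3 called in knockouts, 1 to 3 in controls and 3 to 5 in the mean. Without Myb control PB pool 1, Kat6b lost its call in controls and Brpf3 and Kat8 theirs in the mean of the genotypes (3 called there).

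With total counts alone the log2 fold changes turned, in knockouts, controls and their mean in turn, for Kat7 (-2.03, -1.87, -1.95), Brpf3 (-1.25, -1.24, -1.24), Brd1 (-1.62, -1.47, -1.54) and Ing4 (-1.46, -1.64, -1.55). The same held for Morf4l2 (-0.62, -0.18), Jade1 (-0.11, -0.11) and Kat2b (-0.59, -0.76) in knockouts and controls, for Hdac5 in controls (-0.14) and for Bmi1 in knockouts (-0.21). By construction this setting lowers every gene in PB libraries that immunoglobulin fills. The difference of Myb effects turned with it for 5 of 10 genes (Kat6a, Kat7, Brpf3, Brd1 and Ing5), to -0.18 for Kat6a, which also turned to -0.024 with the replicate block. Ing4 turned with it in Myb PB and Brpf1 in day 12 over day 7. Without the low-count filter Kat7 turned to -0.029, -0.071 and -0.050 and Meaf6 in the Myb PB comparison to 0.00041; the cause was not tested.

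Leaving out libraries turned only values that were not called with all 12 libraries: 7 of 10 genes in Moz GC, 6 in Myb GC, 8 in Myb PB, 7 in day 12 over day 7, 10 in the difference of effects, and 2, 3 and 2 in PB over GC of knockouts, controls and their mean. Kat6a ran from -0.20 to 0.27 (Moz GC), -0.46 to 0.15 (Myb GC), -0.75 to 0.32 (Myb PB), -0.79 to 0.28 (knockout PB over GC), -0.63 to 0.15 (control PB over GC), -0.49 to 0.046 (their mean), -0.080 to 0.47 (day 12 over day 7) and -0.60 to 0.47 (difference of effects). Kat6b ran from -1.12 to 0.46 (Myb GC), -0.45 to 0.47 (Myb PB), -0.52 to 0.87 (day 12 over day 7) and -0.54 to 1.04 (difference of effects). Brpf1 ran from -0.57 to 0.78 (Myb GC), -1.05 to 0.017 (knockout PB over GC) and -1.02 to 0.17 (control PB over GC). Meaf6 ran from -0.39 to 0.31 (Myb PB) and -0.17 to 0.53 (difference of effects). Kat7 ran from -0.095 to 0.068 (control PB over GC) and -0.031 to 0.050 (mean), Brpf3 from -0.32 to 0.051 (Myb PB), Brd1 from -0.57 to 0.091 (day 12 over day 7) and Ing4 from -0.020 to 0.68 (difference of effects). The low counts of Kat6b in Myb GC B cells (41 to 126 per library) limit its precision, and 2 pools per group limit all 10.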

Other observations

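Brpf1, Brd1 and Kat7 differed between pools in ways that their exon length did not order. Brpf1, with 4435 bases of exon, was higher in pool 1 by 1.06 in log2 CPM in Myb knockout GC B cells and by 1.17 in Myb control GC B cells. Its class of 4 to 6 kb had medians of 0.19 and 0.15 there. Brd1 was higher in pool 1 in all 6 groups, by 0.11 to 0.64, including Moz knockouts, where its length class had a median of -0.15. Kat7, with 5966 bases, differed between pools by at most 0.20 in log2 CPM in every group, although its length class had medians of up to 0.24.

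Reads of some members may be shared with overlapping genes, since the strand setting is not known. Kat8 shares 4.22% of its annotated exon bases with Prss8 on the opposite strand. Brpf1 shares 3.76% with the antisense gene Gm15492. Brpf3 shares 3.14 and 1.38% with 2 non-coding genes on the opposite strand.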
